A study of Mus musculus with 12 samples.

Results

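The 5 genes described here handle heme, iron and metal ions in mouse liver: Hebp1 (heme-binding protein 1), Urod (uroporphyrinogen decarboxylase), Tfrc (transferrin receptor 1), and the metallothioneins Mt1 and Mt2. They were chosen by name, with earlier results of these data known. Their spots on a 2-colour cDNA array are those that the platform annotation assigns to them once the spot numbering is reversed (spot k takes the entry of spot 31201 minus k). By this rule 8 clones, each printed as 2 neighbouring spots, belong to the 5 genes. One clone per gene, 5 in all, held values, against 2151 measured clones and 918 named genes in the whole table. The other 2 Tfrc clones and the other Mt2 clone held no value on any array. Each of the 5 measured clones had values at both spots on all 12 arrays.

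The arrays compared pooled liver RNA of 3 null genotypes with a pool of wild-type liver. Hx-null mice lack hemopexin (Hp+/Hx-/-), Hp-null mice lack haptoglobin (Hp-/-Hx+/), and HpHx-null mice lack both (Hp-/-Hx-/-). All were adult littermates, like the wild-type mice (Hp+/Hx+/), from double heterozygous parents on a mixed C57/BLJ6 and 129Sv background, and their livers were perfused with PBS and pooled, at least 5 mice per genotype. Each null had 4 arrays with swapped dyes. The 4 arrays read 1 pair of RNA pools as far as the labels tell, so each p-value measures a difference between pools by how far the arrays scatter, with no part for variation among mice or for the wild-type pool's own spread. In pooled tissue, fewer cells of a type and less RNA per cell cannot be told apart.

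Heme released from hemoglobin is toxic when free, and plasma hemopexin carries it to the liver, while haptoglobin carries hemoglobin itself to macrophages. Inside cells heme is made by a chain of enzymes in which Urod catalyses the fifth step, removing carboxyl groups from uroporphyrinogen, and is bound by small cytosolic proteins such as Hebp1. Heme breakdown frees iron. The mRNA of Tfrc, which takes up transferrin-bound iron at the cell surface, is stabilised by iron regulatory proteins when iron is scarce. Metallothioneins bind zinc, copper and other metal ions through many cysteines, and in mouse liver Mt1 and Mt2 are known to be induced together by metals, glucocorticoids and acute-phase signals.

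The promoters of Mt1 and Mt2, the pair of members with a shared and well described regulator, and of Hebp1, the member with the largest ratios, are shown first, as RefSeq gives them for build GRCm38.p6, from 250 bases before to 50 bases after the annotated start of the gene. Capitals mark cores of the metal response element (TGCACNC or TGCGCNC on either strand), to which the metal-sensing factor Mtf1 binds, and of the antioxidant response element (TGACNNNGC on either strand).
Mt1, chr8:94178839-94179138, plus strand: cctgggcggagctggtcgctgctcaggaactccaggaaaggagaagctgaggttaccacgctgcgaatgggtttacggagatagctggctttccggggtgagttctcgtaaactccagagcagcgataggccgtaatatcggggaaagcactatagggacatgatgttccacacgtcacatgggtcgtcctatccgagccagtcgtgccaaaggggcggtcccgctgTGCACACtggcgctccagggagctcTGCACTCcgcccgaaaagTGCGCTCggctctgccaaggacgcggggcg
Mt2, chr8:94172368-94172667, plus strand: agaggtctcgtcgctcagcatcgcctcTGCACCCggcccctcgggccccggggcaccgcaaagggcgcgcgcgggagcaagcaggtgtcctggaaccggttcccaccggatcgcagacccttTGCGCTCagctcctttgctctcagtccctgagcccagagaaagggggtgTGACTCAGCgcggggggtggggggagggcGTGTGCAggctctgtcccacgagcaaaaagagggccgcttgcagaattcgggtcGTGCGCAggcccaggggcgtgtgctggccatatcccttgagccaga
Hebp1, chr6:135168166-135168465, minus strand: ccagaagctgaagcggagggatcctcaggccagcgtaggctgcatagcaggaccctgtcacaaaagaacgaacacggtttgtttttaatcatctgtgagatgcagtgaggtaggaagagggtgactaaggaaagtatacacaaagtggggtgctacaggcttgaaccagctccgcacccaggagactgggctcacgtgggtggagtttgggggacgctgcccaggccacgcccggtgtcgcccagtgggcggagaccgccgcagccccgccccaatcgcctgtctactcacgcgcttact
The Mt1 window held 3 metal response cores and the Mt2 window 4, with 1 antioxidant core in Mt2. Counted from the annotated start, the metal response cores began at -23, 2 and 20 in Mt1 and at -223, -128, -50 and 4 in Mt2. Sequence outside the windows was not searched. Neither element was found in the Hebp1 or Urod window, and the upstream of 2 windows listed for Tfrc held 2 overlapping metal response cores on opposite strands. Of all 32851 promoter windows of this length, 25.7% held at least 1 metal response core, 7.11% held 2 or more, 0.517% held 4 or more, and 12.4% held an antioxidant core. These matches describe the sequence and show no binding.

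Several properties of the arrays touch the values below. Deposited values were taken as log2 ratios and centred on each array's median. Their direction was not settled. The labels swap the dyes between replicates 1 and 2 (null pool in Cy5) and replicates 3 and 4 (null pool in Cy3), and arrays with the same labelled dye correlated over features at 0.83 and 0.84 in Hx-null, but at -0.58 and -0.79 in Hp-null and at -0.64 and -0.22 in HpHx-null. A first component holding 71.5% of the sum of squares split the arrays into 2 blocks of 6, each with 2 arrays of every genotype. The block is the sign of an array's weight on this component. HpHx-null replicate 3 had the weight closest to 0, at 0.12, so its block is the least certain. The next closest was -0.22, for Hp-null replicate 2. Labelled dye and block differed on 4 arrays. The first block holds Hx-null replicates 1 and 2, Hp-null 2 and 3 and HpHx-null 1 and 4, and the second block the others. Ratios are therefore given with the deposited sign, as positive or negative, and the means of the 5 genes again with the sign turned by labelled dye and by block. Turning by block changes the sign of the second block. Which block to turn was not settled, and turning the first instead would give every such mean the opposite sign. For the 5 genes a mean turned by block restates the block difference within that genotype. Read as null over wild-type, a positive ratio would stand for a higher level in the null. Of marker genes with a probe, 6 of 6 of hepatocytes were measured, 2 of 5 of macrophages, and none of 3 of erythroid cells, 1 of neutrophils or 4 of stellate and duct cells. No probe names the deleted genes, so the genotype labels were not checked.

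Hebp1, which binds heme and other tetrapyrroles in the cytosol, had by far the largest ratios of the 5 genes. In Hx-null its centred log2 ratio was 0.59, 0.91, -0.07 and 0.04 in replicates 1 to 4. In Hp-null it was 0.15, 0.89, 0.93 and -0.18. In HpHx-null it was 0.97, -0.05, 1.16 and 0.84. High and near-zero arrays occurred in every genotype, so the genotypes overlapped. The means were 0.37 ± 0.46 for Hx-null, 0.45 ± 0.55 for Hp-null and 0.73 ± 0.54 for HpHx-null (SD, n = 4 arrays each). The order of the 3 nulls, from Hx-null through Hp-null to HpHx-null, thus rests on differences smaller than 1 SD.

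**Figure D1:**
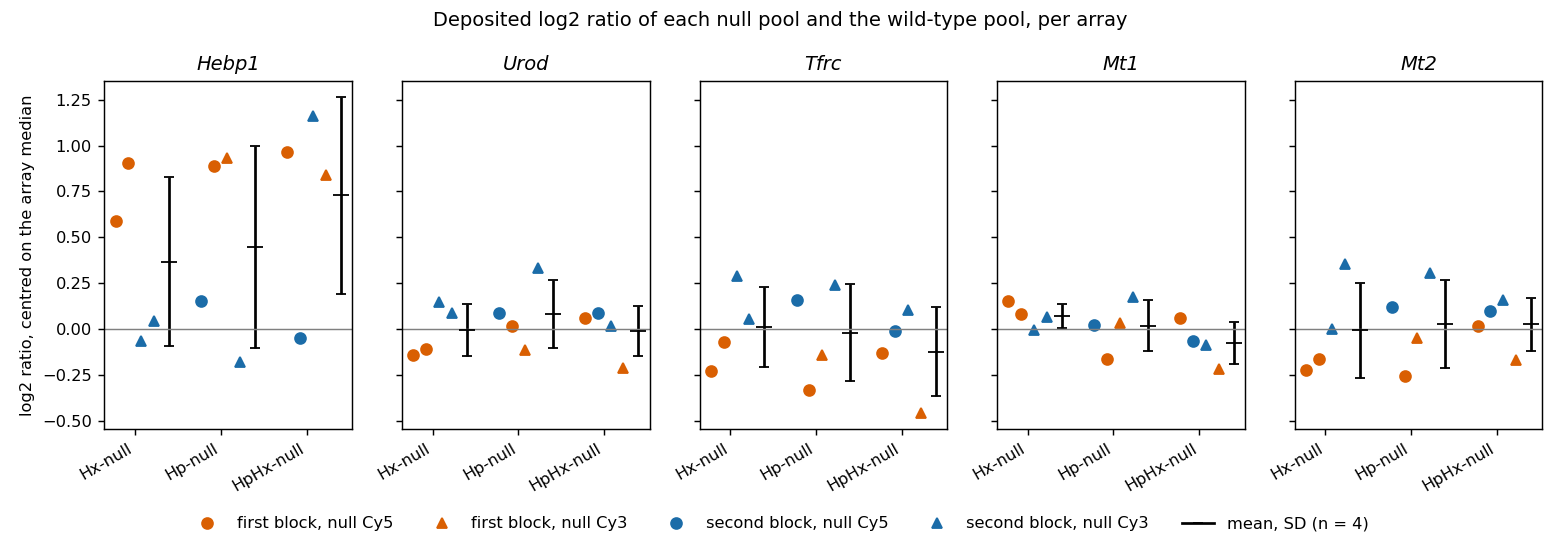
Centred log2 ratio (y axis, deposited sign) of each gene on the 4 arrays of Hx-null, Hp-null and HpHx-null (x axis); colour gives the block of arrays, shape the labelled dye of the null pool, and bars the mean and SD. Hebp1 runs from -0.18 to 1.16, and the other 4 genes stay between -0.46 and 0.35.

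The high Hebp1 values followed the block of arrays. All 6 arrays of the first block lay between 0.59 and 0.97, with a mean of 0.85. In the second block 5 arrays lay between -0.18 and 0.15, with a mean of -0.02, and HpHx-null replicate 3 stood apart at 1.16, the highest value of all 12 arrays. Both spots of the clone gave that value, at 1.14 and 1.19. Block 1 minus block 2 was 0.68 over all 12 arrays and 0.87 without HpHx-null replicate 3. A block difference of smaller size was seen in 75.7% of the 1129 features measured on all arrays. These block values are a description, because the blocks come from the same arrays.

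With the labelled dyes as a term in the fit, Hebp1 did not pass in any null. The fitted log2 ratio was 0.37 in Hx-null (SE 0.25, 95% interval -0.20 to 0.93, limma adjusted p = 1.0), 0.45 in Hp-null (SE 0.25, interval -0.12 to 1.02, adjusted p = 0.999) and 0.73 in HpHx-null (SE 0.25, interval 0.16 to 1.30, adjusted p = 0.509). None of the 5 genes passed in limma with the labelled dyes, where 0.643% of features passed for Hx-null, 0% for Hp-null and 0% for HpHx-null. In the same order, 0, 0 and 1 of the 5 genes had an unadjusted p under 0.05, as did 3.75%, 2.43% and 5.79% of features. The unmoderated test also gave 0 after adjustment, where 0.697%, 0% and 0% of features passed. Before adjustment it gave 0, 0 and 1, against 5.42%, 3.17% and 6.66% of features.

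With the block in place of the labelled dye the estimates stayed as they were and their errors shrank. The blocks were read from these same values, and the block-term p-values, here and below, take no account of that choice. Hebp1 then passed in HpHx-null, with a log2 ratio of 0.73 (SE 0.15, 95% interval 0.40 to 1.06, limma adjusted p = 0.0130) and positive ratios on 3 of 4 arrays. It did not pass in Hx-null at 0.37 (SE 0.15, interval 0.05 to 0.69, adjusted p = 0.269) or in Hp-null at 0.45 (SE 0.15, interval 0.13 to 0.77, adjusted p = 0.128). Thus 1 of the 5 genes passed in HpHx-null, where 5.38% of all features did, and 0 passed in Hx-null (2.09% of features) and Hp-null (2.78% of features), with 1 of 5 at an unadjusted p under 0.05 in each of the 3. That share is near the background, since 13.5% of features for Hx-null, 19.1% for Hp-null and 13.2% for HpHx-null had an unadjusted p under 0.05 with the block term.

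With the block term, 1 array decided the size of the HpHx-null ratio and the gap between the genotypes. Without HpHx-null replicate 3, the Hebp1 ratio with the block term was 0.44 in HpHx-null (SE 0.09, limma adjusted p = 0.0287), 0.37 in Hx-null (SE 0.08, adjusted p = 0.0190) and 0.45 in Hp-null (SE 0.08, adjusted p = 0.0111), so that Hebp1 passed in all 3 nulls with ratios at most 0.08 apart on the log2 scale. In the same fit 1.77% of features passed in HpHx-null, 4.36% in Hx-null and 3.56% in Hp-null. HpHx-null replicate 3 also held the fewest values of the 12 arrays, 3009. With the labelled dyes and without that array, the Hebp1 ratio in HpHx-null was 0.55 (adjusted p = 0.996), still above the other nulls, and without HpHx-null replicate 2 it was 1.04 (adjusted p = 0.165).

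**Figure D2:**
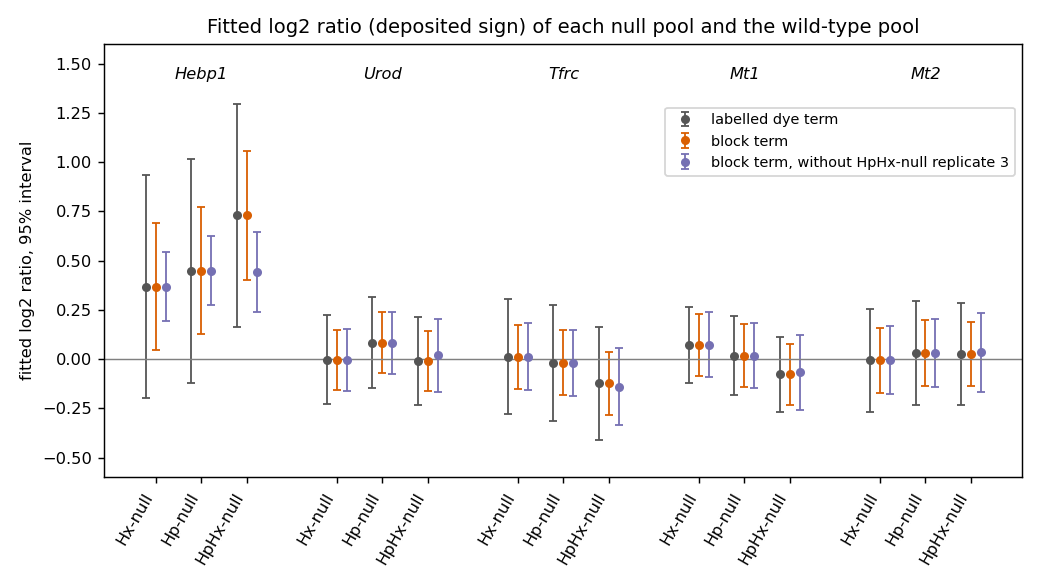
Fitted log2 ratio with its 95% interval (y axis) for each gene and null genotype (x axis), from limma with the labelled dye term (grey), the block term (orange) and the block term without HpHx-null replicate 3 (purple). Without that array Hebp1 lies at 0.37, 0.45 and 0.44, while all intervals of the other 4 genes include 0.

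The turned sign changed Hebp1 most in the double null. When the sign was turned on the arrays labelled with the null pool in Cy3, the reading of a Cy5 over Cy3 ratio, the Hx-null mean was 0.38 ± 0.45, the Hp-null mean 0.07 ± 0.75 and the HpHx-null mean -0.27 ± 0.95 (SD, n = 4 arrays each). Turned by block it was 0.38 ± 0.45, 0.46 ± 0.54 and 0.17 ± 0.98 in the same order. The value in HpHx-null therefore lost its sign under the first reading and most of its size under the second. The means turned by block are given with no test.

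Genes whose arrays ran most like Hebp1 were found by Pearson correlation over the arrays after the mean of each block was subtracted, among 772 named genes with at least 10 shared arrays. The closest were Ttc3, a ubiquitin ligase of the tetratricopeptide family (r = 0.95, n = 12 arrays), Fbxl5, the iron-sensing subunit of the ligase that degrades iron regulatory protein (r = 0.94, n = 12), and Rfc1, a subunit of replication factor C (r = 0.92, n = 12). These values share the 12 arrays and their 1 wild-type pool. Without HpHx-null replicate 3 they were 0.79, 0.60 and 0.51. Fbxl5 stood at 0.69 on that array and between 0.01 and 0.28 on the other 11. For Ttc3 the value there was 1.30, against -0.15 to 1.03 elsewhere.

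**Figure D3:**
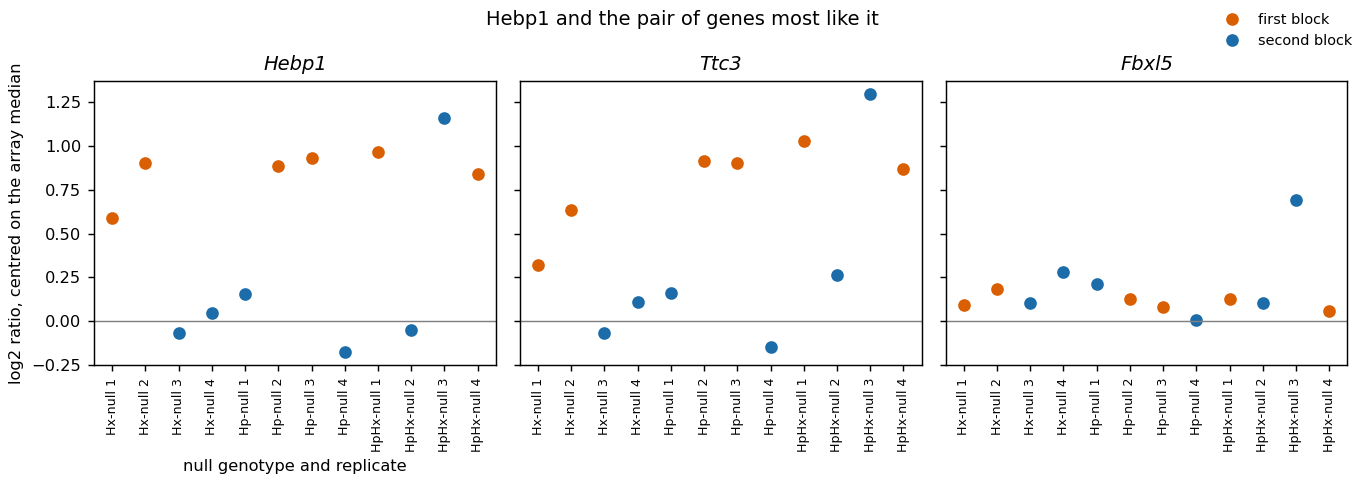
Centred log2 ratio (y axis) of Hebp1, Ttc3 and Fbxl5 on each array (x axis, null genotype and replicate), coloured by block. On HpHx-null replicate 3 the values are 1.16, 1.30 and 0.69, the highest of each gene.

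Urod, the member of heme synthesis, had small ratios whose side of 0 depended on the sign taken. Its centred log2 ratio in Hx-null was -0.14, -0.11, 0.15 and 0.09 in replicates 1 to 4. Hp-null gave 0.09, 0.02, -0.11 and 0.33, and HpHx-null 0.06, 0.09, 0.02 and -0.21. With the deposited sign every genotype had arrays on both sides of 0. The means were -0.0034 ± 0.14 for Hx-null, 0.08 ± 0.19 for Hp-null and -0.0093 ± 0.14 for HpHx-null (SD, n = 4 arrays each). Turned by the labelled dyes the means were -0.12 ± 0.03, -0.03 ± 0.21 and 0.09 ± 0.10, and turned by block -0.12 ± 0.03, -0.13 ± 0.15 and -0.06 ± 0.12, in the same order. In Hx-null both readings turn the same arrays, and all 4 then lay below 0, which is a description with no test. Only 5.67% of features varied less than Urod within the blocks, where its SD was 0.11 against a median of 0.17 over all features.

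Tfrc, the route of transferrin iron into the cell, spread more widely. In Hx-null its ratio was -0.23, -0.07, 0.29 and 0.06, in Hp-null 0.16, -0.33, -0.14 and 0.24, and in HpHx-null -0.13, -0.01, 0.11 and -0.46. The 3 genotypes overlapped, with means of 0.01 ± 0.22, -0.02 ± 0.27 and -0.12 ± 0.24 (SD, n = 4 arrays each), so that the order from Hx-null down to HpHx-null is within the spread. By block, all 6 arrays of the first lay below 0, from -0.46 to -0.07, and those of the second between -0.01 and 0.29. A block difference of smaller size than that of Tfrc was seen in 49.8% of the 1129 features measured on all arrays. With the second block turned, the Tfrc mean was negative in each null, at -0.16 ± 0.12 for Hx-null, -0.22 ± 0.09 for Hp-null and -0.17 ± 0.20 for HpHx-null, which is a description with no test. With the first block turned instead, the Tfrc mean would be positive in each. Under the labelled dyes' sign it was -0.16, -0.07 and 0.05.

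Mt1 had the narrowest range of the 5 genes. Its ratio was 0.15, 0.08, -0.0067 and 0.07 in Hx-null, 0.02, -0.16, 0.03 and 0.18 in Hp-null, and 0.06, -0.06, -0.09 and -0.22 in HpHx-null. The means of 0.07 ± 0.06, 0.02 ± 0.14 and -0.08 ± 0.11 (SD, n = 4 arrays each) ran from Hx-null down to HpHx-null, with all genotypes overlapping. Over the 12 arrays the SD was 0.12, and 4.34% of features had a smaller one. Block 1 minus block 2 was -0.03, against a median size of 0.37 over all features, and the means turned by block were 0.04, -0.08 and -0.0013 in Hx-null, Hp-null and HpHx-null. Turned by the labelled dyes the Mt1 means were 0.04, -0.09 and 0.08.

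Mt2 followed the blocks more than Mt1 did. In Hx-null its ratio was -0.22, -0.16, 0.0029 and 0.35, in Hp-null 0.12, -0.26, -0.05 and 0.31, and in HpHx-null 0.02, 0.10, 0.16 and -0.17. The means were -0.0061 ± 0.26, 0.03 ± 0.24 and 0.03 ± 0.14 (SD, n = 4 arrays each), with all genotypes overlapping. Block 1 minus block 2 was -0.31, the sign of Tfrc at -0.37 and Urod at -0.21 and the opposite of Hebp1. Block differences of smaller size were seen in 42.9% of features for Mt2 and in 29.5% for Urod. With arrays turned by block the Mt2 means were -0.18 ± 0.15, -0.18 ± 0.12 and -0.10 ± 0.09. By the labelled dyes they were -0.18 ± 0.15, -0.10 ± 0.21 and 0.03 ± 0.14. After block means were subtracted, Mt1 and Mt2 correlated at 0.44 over the 12 arrays, and Mt1 and Tfrc at 0.70. A cDNA clone of either metallothionein may also capture the transcript of the other, which was not tested.

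**Figure D4:**
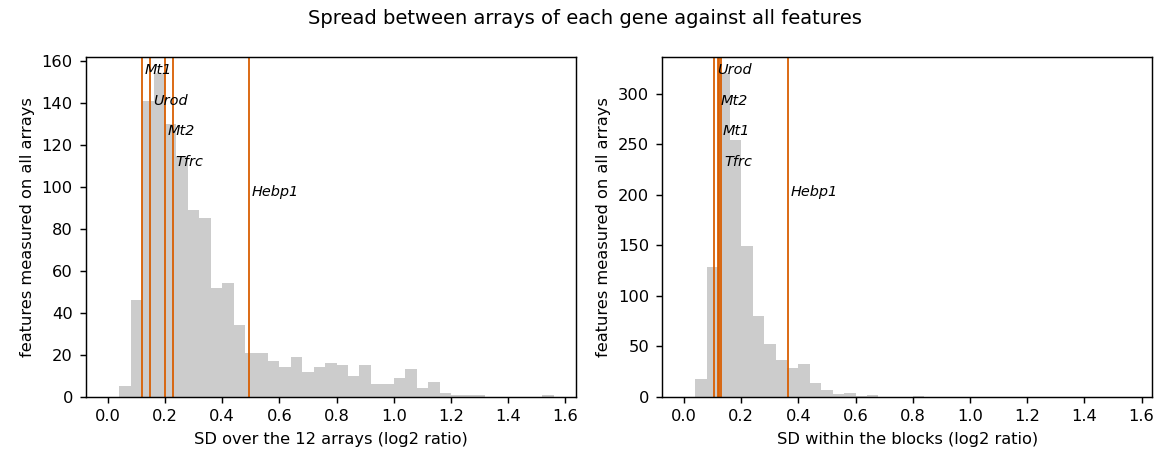
Number of features measured on all 12 arrays (y axis, 1129 in all) by their SD in log2 ratio (x axis) over all arrays (left) and within the blocks (right); lines mark the 5 genes. Mt1 has an SD of 0.12 over all arrays and Hebp1 0.49; within the blocks 92.3% of features vary less than Hebp1.

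For Urod, Tfrc, Mt1 and Mt2 the 12 fitted ratios against wild-type, 3 per gene, ran from -0.12 to 0.08. With the labelled dyes their 95% intervals lay within -0.41 and 0.31, and the lowest unadjusted p was 0.367 (limma, lowest adjusted p = 0.999). With the block term the intervals lay within -0.28 and 0.24, which as linear ratios is 0.822 to 1.18, and the lowest unadjusted p was 0.125 (lowest adjusted p = 0.556). The intervals bound differences between these pools. They do not show that the levels were equal.

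Duplicate spots showed where a value was less certain. On HpHx-null replicate 3 the 2 spots of Urod gave 0.41 and -0.37, a gap larger than that of 99.9% of clones on the array. Those of Tfrc gave 0.31 and -0.10, larger than 99.3%, and those of Mt2 gave 0.30 and 0.02, larger than 95.9%. Hebp1 and Mt1 had gaps of 0.05 and 0.04 there. On the other 11 arrays the median gap of each gene was between 0.04 and 0.09. The largest gaps there were 0.23 for Urod, 0.26 for Tfrc and 0.24 for Mt2. For Mt2 this is near its gap of 0.28 on HpHx-null replicate 3. With only the first or only the second spot, Urod in HpHx-null was 0.12 or -0.13.

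**Figure D5:**
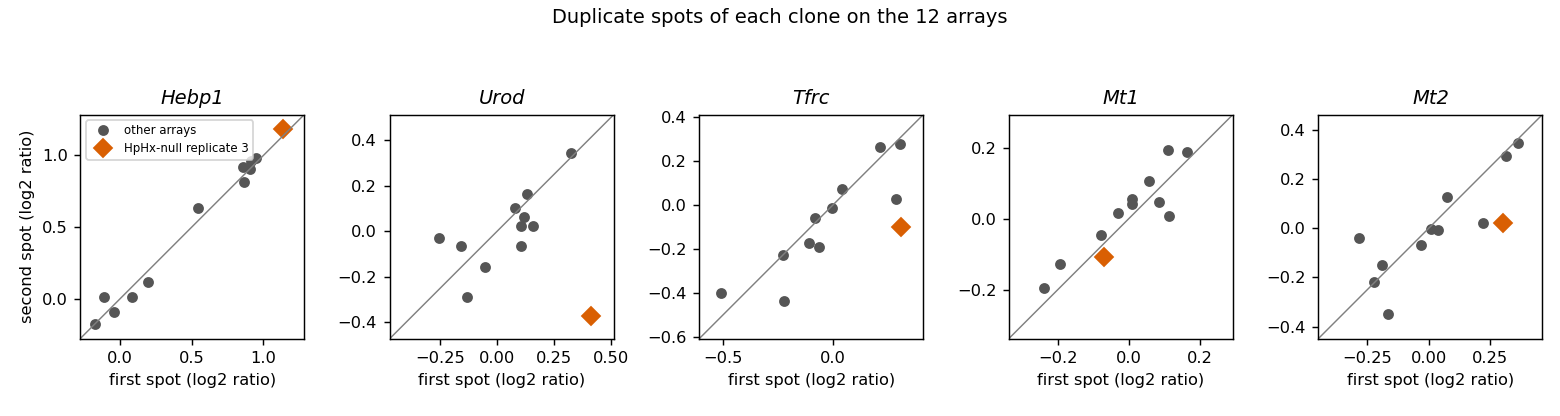
Centred log2 ratio of the second spot (y axis) against the first (x axis) of each gene's clone on the 12 arrays, with the line of equality; the diamond is HpHx-null replicate 3. The diamond lies far off the line for Urod (0.41 and -0.37) and on it for Hebp1 (1.14 and 1.19).

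Differences between pairs of null genotypes were tested apart from the wild-type pool. Hebp1 differed by 0.08 between Hp-null and Hx-null (95% interval -0.72 to 0.88), by 0.36 between HpHx-null and Hx-null (interval -0.44 to 1.16) and by 0.28 between HpHx-null and Hp-null (interval -0.52 to 1.08) with the labelled dyes. Its HpHx-null ratio lay -0.09 from the sum of the single nulls (interval -1.07 to 0.89). Unlike the pairwise differences, that value still depends on the wild-type pool. None of the 5 genes passed in these comparisons (limma, lowest adjusted p = 0.997 for the labelled dye term and 0.569 for the block term), and 0 of 5 reached an unadjusted p under 0.05 under either term or in the unmoderated test. In the order of the comparisons above, 1.73%, 0.967%, 2.19% and 1.09% of features did so with the labelled dyes. These shares were 14.7%, 5.56%, 12.4% and 7.78% with the block term, and 3.68%, 1.45%, 3.31% and 1.52% in the unmoderated test. With the labelled dyes 0.595% of features passed for Hp-null against Hx-null and 0% in the other 3 comparisons. The block term gave 1.14% for Hp-null against Hx-null, 0.181% between HpHx-null and Hx-null, 0% between HpHx-null and Hp-null and 0.0608% against the sum.

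Related genes were few on these arrays. Of 9 heme synthesis genes 8 had a probe, and Urod alone held values. Of 20 genes of heme breakdown and uptake 10 had a probe and 3 were measured: Hebp1, the membrane heme-binding protein Pgrmc1 and the heme-sensing repressor Bach1. Of 32 iron handling genes 15 had a probe and 5 were measured, which were Tfrc, the ferritin chains Ftl1 and Fth1, the metal importer Slc39a14 and Fbxl5. Of 24 genes of metallothioneins and trace metals 15 had a probe and 6 were measured, Mt1 and Mt2 among them. Both heme oxygenase genes, Hmox1 and Hmox2, had a probe and no value.

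None of the 15 genes on these lists passed against wild-type with the labelled dyes in limma, and 0 for Hx-null, 2 for Hp-null and 2 for HpHx-null had an unadjusted p under 0.05. Of all features 3.75%, 2.43% and 5.79% did, in the same order. The unmoderated test gave 0 after adjustment and 1, 2 and 2 before it, against 5.42%, 3.17% and 6.66% of features before adjustment. With the block term Ftl1 passed in Hp-null at -0.94 (SE 0.07, limma adjusted p = 8.84e-06) and in HpHx-null at -0.38 (SE 0.07, adjusted p = 0.00915). It also passed for Hp-null against Hx-null (-0.66, adjusted p = 0.00183) and for HpHx-null against the sum of the single nulls (0.83, adjusted p = 0.0150). Its sign depended on the reading. Turned by the labelled dyes the Ftl1 mean was 0.62 for Hx-null, -0.06 for Hp-null and -0.08 for HpHx-null, and turned by block it was 0.62, 0.57 and 0.54. With the deposited sign Pgrmc1 had ratios of -0.20 for Hx-null, -0.25 for Hp-null and -0.11 for HpHx-null, against 0.35, 0.22 and 0.19 turned by block, and Bach1 had 0.02, 0.10 and -0.01, against 0.02, -0.33 and -0.06. Fth1, measured on 9 arrays, stood at -0.21, -0.33 and -0.19 with the block term, Fbxl5 at 0.16, 0.11 and 0.25, and Slc39a14 at 0.08, -0.14 and -0.12. The HpHx-null mean of Fbxl5 was 0.10 without replicate 3. In the iron handling list Ftl1 was the 1 of 5 that passed in Hp-null, where 2.78% of features passed, and in HpHx-null, where 5.38% did. The list medians were -0.14 and -0.12 against -0.01 and -0.03 over all features, and -0.0027 and -0.15 with arrays turned by block. In the list of heme breakdown and uptake 1 of 3, Hebp1, passed in HpHx-null, and in the metallothionein and trace metal list 0 of 6 in all 3 nulls, with medians of -0.05, 0.02 and -0.07 in Hx-null, Hp-null and HpHx-null, and -0.16, -0.14 and -0.16 turned by block.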

How the data were processed

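The deposited table of log2 ratios for 12 arrays was the only data file. Per the labels and the series' design text, Cy3 or Cy5 was built into cDNA in the reverse transcription itself. For the authors' ratios, the log base, normalization, weak-spot filter and direction were not given in the sources used here, and base 2 was assumed. Each array was centred on its median and held 3009 to 4165 values. Neighbouring spots were averaged to 2151 clones and clones of 1 gene to 2052 features. Names rest on the reversed numbering, under which 205 of 3476 pairs of same-gene clones were both measured, against 63 in the direct order. An earlier analysis inferred that numbering from which spots held values, so these counts draw on the same information and are no independent support for it. The 5 genes, the gene lists, the block term and the alternatives were all chosen with earlier results of these data known.

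R 4.3.3 with limma 3.58.1 fitted all 12 arrays (lmFit, robust eBayes) with 1 coefficient per genotype and a term for the labelled dye, as the main setting, or for the block. A feature needed values on 3 of 4 arrays of each genotype compared, or on 2 when an array was left out. Benjamini-Hochberg adjustment ran over all features, with a threshold of 0.05. The fits were tested on simulated data with the blocks taken as known, which does not cover blocks read from the same values. The number of arrays limits the precision. Genes named are the 5, the listed genes that passed in any comparison with either term, all measured genes of lists with at most 5, and for likeness the 3 highest of each of the 5. Hmox1 and Hmox2 were named after it was seen that they held no value; promoters come from RefSeq (GRCm38.p6), where all 5 genes matched. For Urod, Tfrc, Mt1 and Mt2 the likeness genes are under other observations.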

Additional observations from a re-analysis of the deposited data

How the results depend on the processing

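The direction of the Hebp1 ratio was positive in all 3 nulls under the 38 alternatives that kept the deposited sign. Its values there lay between 0.19 and 0.51 in Hx-null, 0.25 and 0.66 in Hp-null and 0.44 and 1.04 in HpHx-null. Over the 5 genes and 3 nulls, 596 of 600 values shifted by less than 1 SD between arrays, and the other 4 all came from turned arrays: Hebp1 in HpHx-null at -0.27 (labelled dyes) and 0.17 (block), Urod in Hp-null at -0.13 (block) and Mt1 in HpHx-null at 0.08 (labelled dyes). That count was largely set by the design and is no measure of robustness. A change of term or test leaves these estimates as they are, and leaving out 1 array cannot move a plain mean by 1 SD. Turning by block was chosen after seeing the data, and HpHx-null replicate 3 was singled out among the omitted arrays after its values were seen.

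How many of the 5 genes passed was 0 in all 7 comparisons with the labelled dyes fitted to all 12 arrays. It became 1, always Hebp1, in HpHx-null with the block term, with the block term on values as deposited and with the block term and quantile scaling. Of all features, 5.38%, 6.78% and 6.20% passed in these fits, in the same order. In Hp-null the number of the 5 genes was 1 with the block term on values as deposited (limma adjusted p = 0.0490), where 4.16% of features passed. In Hx-null it was 1 in the fit to the arrays of that genotype alone, with the labelled dyes (limma adjusted p = 0.0172), where 7.13% of features passed. Leaving out 1 array gave 0 to 1 in each null against wild-type and 0 to 0 in the other comparisons. With the block term and 1 array left out, Hebp1 passed in HpHx-null in every case (adjusted p up to 0.0472 over the 15 fits with that term), but in Hx-null and Hp-null only without HpHx-null replicate 3. The features passing in HpHx-null in these leave-one-out fits ranged from 33 of 1868, without HpHx-null replicate 3, to 97 of 1922, without Hp-null replicate 3. The replicate block, with replicate number in place of the dye, gave 0 in every comparison, and no feature of the whole table passed there either. The shared numbers do not pair the arrays: deviations from the group means correlated over features between -0.87 and 0.86, and above 0.1 in 4 of 12 same-number pairs. Under the direct numbering 2 of the 8 clones of the 5 genes held values, instead of 5, a count that cannot test a numbering inferred from which spots held values. The deposited ratios keep no signal over background, so what depth limits could not be examined.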

Other observations

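The genes most like the other 4 members, by the same correlation within blocks, had values of 0.70 to 0.93 and changed less without HpHx-null replicate 3. For Urod they were Trpc2 (r = 0.93, n = 12 arrays), Ppp3cb (0.88) and Brms1 (0.88). Tfrc was closest to Cnn2 (0.82), Nono (0.81) and Pttg1ip (0.76), and Mt1 to Pttg1ip (0.90, n = 12), Gnb2 (0.86, n = 11) and Dynlrb1 (0.82). Mt2 had the lowest values, with Asz1 (0.75, n = 11), Mdh1 (0.72, n = 10) and Calr (0.70, n = 11). Mdh1 and Calr held no value on HpHx-null replicate 3, so leaving out that array could not change their values. Without HpHx-null replicate 3 the value of Urod with Trpc2 was 0.92 and that of Tfrc with Cnn2 was 0.87. These describe 12 arrays that share 1 wild-type pool.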
